A study of Homo sapiens with 4 samples.

Results

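The trefoil factor cluster of human chromosome 21 was described from H3K27ac peaks, the intervals where chromatin immunoprecipitation followed by sequencing (ChIP-seq) found acetylated lysine 27 of histone H3 above background. Its 6 member genes were TFF1, TFF2, TFF3, TMPRSS3, UBASH3A and RSPH1, of 19970 protein-coding genes considered. The locus was the span of these genes with 50 kb added on either side, 284.6 kb in all (hg38, chr21:42261667-42546246), with gene positions from GENCODE release 44. It was selected on these same data, because TFF1 had a promoter peak where other luminal breast genes had none. The presence and strength of the TFF1 peak are therefore given as a description and not as a finding.

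The series held 4 peak lists, 2 for each of 2 established breast cancer lines, MDA-MB-231 and Hs578T, both triple-negative, that is, without oestrogen receptor, progesterone receptor or HER2 amplification. Every library came from the same treatment. Cells grown in serum were starved in reduced-serum medium and given 10 ng/ml of TWEAK for 48 h. TWEAK was then washed out for 72 h per the labels, while the study's own text has a longer wash-off. TWEAK is a cytokine of the tumour necrosis factor family that signals through the receptor Fn14. Neither untreated cells nor cells in the presence of TWEAK were analysed here, so the values hold for cells after wash-off and say nothing of the response to TWEAK. The labels number the replicates, which the methods of the study call biological, and each line is a single line standing for its tumour class.

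Of the deposited peaks on chromosomes 1 to 22 and X, the locus held 0 of 209 in MDA-MB-231 replicate 1, 10 of 43353 in MDA-MB-231 replicate 2, 9 of 46330 in Hs578T replicate 1 and 9 of 44920 in Hs578T replicate 2. The list labelled MDA-MB-231 replicate 1 stood apart from the others genome-wide, with 12 protein-coding genes marked at their promoter, so the lack of a peak there says nothing about a single locus. MDA-MB-231 was therefore described by 1 usable list. Mesenchymal markers were mostly marked in the 3 large lists. Of 7 mesenchymal marker genes, 6, 7 and 6 were marked at the promoter in MDA-MB-231 replicate 2, Hs578T replicate 1 and Hs578T replicate 2. Over all protein-coding genes the marked share in these lists was 58.1%, 58.2% and 56.4%. None of 5 luminal markers that such lines should lack (ESR1, GATA3, FOXA1, ESRP1 and PGR) and none of 5 T cell markers had a promoter peak in any list. Of a wider list of 16 luminal genes, given below, 9 (56.25%) had a promoter peak in every large list. That is near the share over all protein-coding genes, 55.6%. Below, values of the 3 large lists are given in the order MDA-MB-231 replicate 2, Hs578T replicate 1 and Hs578T replicate 2 unless they are named.

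Trefoil factors are small secreted peptides built from a disulphide-bonded trefoil domain, and mucus-secreting epithelia release them together with mucins to protect and repair the surface. TFF1 is made mainly by gastric surface cells, TFF2 by gastric neck and duodenal gland cells, and TFF3 by intestinal goblet cells. In breast tumours TFF1 is a classical oestrogen-induced gene, bound by the oestrogen receptor at an element upstream of its start. H3K27ac is laid down by the acetyltransferases p300 and CBP at active promoters and enhancers. ChIP-seq reads a whole population, so a strong mark in few cells and a weak mark in many cannot be told apart.

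The 3 large lists together gave 12 regions in the locus, numbered from 1 at the lowest coordinate. The sequences that follow were read from hg38 or, for the promoter entry, taken from RefSeq (GRCh38.p14), and are in lower case with capitals only where a searched motif matched. The first belongs to the TFF1 peak, region 5. It holds the only match within the 12 regions to the oestrogen response element GGTCANNNTGNCC, shown in capitals on the minus strand, the strand of TFF1, at chr21:42366928-42366940. The match lay 393 to 405 bases upstream of the TFF1 start site and inside the part of the peak common to the 3 lists.
Element in region 5, chr21:42366920-42366948, minus strand: ccctgcaaGGTCACGGTGGCCaccccgtg

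Sequences of 2 further kinds carried acetylation in the locus. The first is a RefSeq promoter of the non-coding gene LOC105372815 that lies wholly inside the TFF2 peak, region 4 and is made of runs of similar short units, with 66% G and C. The other is the centre of region 12 in intron 1 of SLC37A1, the strongest region outside the trefoil promoters.
LOC105372815 promoter, chr21:42352043-42352342, plus strand: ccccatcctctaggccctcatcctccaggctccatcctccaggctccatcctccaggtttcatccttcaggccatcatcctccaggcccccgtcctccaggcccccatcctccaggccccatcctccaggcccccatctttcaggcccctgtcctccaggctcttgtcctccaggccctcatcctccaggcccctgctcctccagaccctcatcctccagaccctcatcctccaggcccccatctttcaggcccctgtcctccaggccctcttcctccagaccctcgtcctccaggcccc
Region 12, chr21:42518074-42518373, plus strand: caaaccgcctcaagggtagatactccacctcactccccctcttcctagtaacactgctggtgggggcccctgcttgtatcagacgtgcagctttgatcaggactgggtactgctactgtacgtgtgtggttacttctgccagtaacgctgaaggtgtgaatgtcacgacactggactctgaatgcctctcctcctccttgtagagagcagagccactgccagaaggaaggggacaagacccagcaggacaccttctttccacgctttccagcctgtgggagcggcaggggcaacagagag

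The overall layout was the same in the 3 large lists: acetylation at the TFF2 and TFF1 start sites, a weak peak upstream of TFF3, little over TMPRSS3 and UBASH3A, and a cluster over the neighbour SLC37A1. Of the 12 regions, 7 were found in all 3 large lists, 2 in 2 lists and 3 in a single list. Peaks covered 4.07%, 3.05% and 2.86% of the locus, against 2.70%, 2.99% and 2.77% of chromosomes 1 to 22 and X and 1.69%, 1.82% and 1.67% of chromosome 21. The locus had more peaks than 85.3%, 79.8% and 80.9% of 10100 windows of the same length along the genome, where the median window had 3. By bases covered it exceeded 75.8%, 65.8% and 66.0% of them, and 28.9%, 28.3% and 28.6% of the windows held no peak. Since the locus was chosen for a promoter peak, these ranks are a description. No peak lay in the flank below TFF3. The nearest peak beyond the locus on that side was 76.5 kb, 76.4 kb and 76.6 kb from the span of the members, and on the other side 175.6 kb, 175.6 kb and 175.8 kb from it, so the limits of the locus cut through no cluster of peaks.

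**Figure D1:**
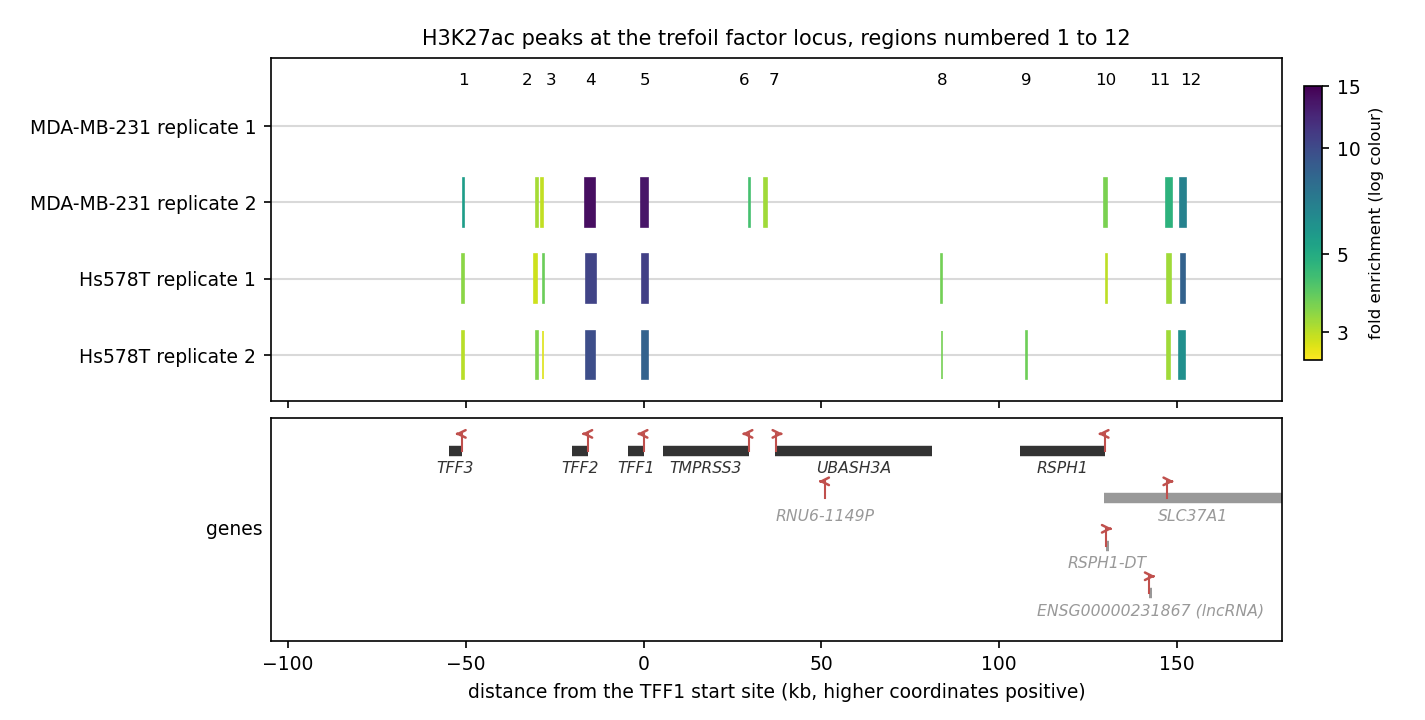
Peaks of the 4 lists along the locus (top, coloured by fold enrichment on a log colour scale) above the genes (members dark, others grey, arrows at canonical start sites), by distance from the TFF1 start site in kb; rectangles have a thin outline so that the narrowest, 206 bp, stays visible. The darkest peaks lie at TFF2 and TFF1, the list MDA-MB-231 replicate 1 is empty, and a stretch of 82.6 kb to 94.8 kb without a peak follows in each of the other lists.

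TFF1, at chr21:42362282-42366535 on the minus strand (ENSG00000160182.3), had its start site inside a peak in each large list. The peak was 1837 bp wide with a fold enrichment of 13.6 in MDA-MB-231 replicate 2, 1631 bp with 10.7 in Hs578T replicate 1, and 1490 bp with 8.59 in Hs578T replicate 2. Fold enrichment here is column 7 of the deposited lists, the signal of a peak over the local background of the same library, and its size is not compared between lists. Within each list, TFF1 stood above the middle of the promoter peaks of protein-coding genes, whose median fold was 8.99, 7.91 and 6.71, and exceeded 76.3%, 68.8% and 67.1% of them. Its width was ordinary for a promoter peak and exceeded 52.9%, 42.0% and 39.96% of them. In Hs578T the 2 replicates gave a mean width of 1561 ± 99.7 bp (SD, n = 2).

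TFF2, at chr21:42346357-42350997 on the minus strand (ENSG00000160181.9), encodes the member with a pair of trefoil domains and carried the widest peak of the locus. In MDA-MB-231 replicate 2 that peak was 3031 bp wide with a fold of 14.0, in Hs578T replicate 1 it was 2703 bp with 10.4, and in Hs578T replicate 2 it was 2538 bp with 9.81. It exceeded 78.3%, 67.5% and 74.9% of promoter peaks by fold and 79.6%, 72.2% and 71.7% of them by width. The Hs578T replicates gave a mean width of 2621 ± 117 bp (SD, n = 2).

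The TFF1 and TFF2 peaks were of similar strength within each library. The ratio of TFF1 to TFF2 fold was 0.965, 1.02 and 0.876, so which of the pair ranked first was not the same in the 2 Hs578T lists. Both stood above all other peaks of the locus in each large list, and the fold of the weaker one was 2.004, 1.21 and 1.4 times that of the next peak. Together they held 42.0%, 49.9% and 49.5% of the bases covered in the locus. They stayed separate peaks, with 12894, 12997 and 13232 bp between them that no peak entered.

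**Figure D2:**
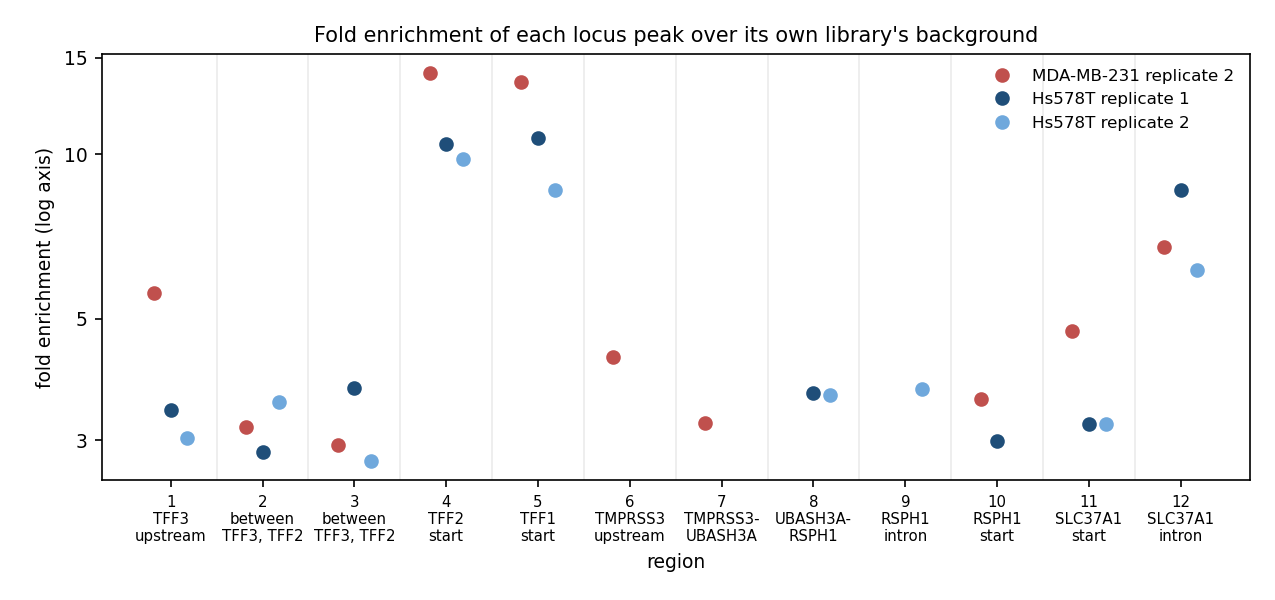
Fold enrichment over the background of the same library (log axis) of every peak in the locus, by region number and list; a missing point means no peak in that list. Regions 4 (TFF2) and 5 (TFF1) are highest in all 3 lists, from 8.59 to 14.0, and region 12 in SLC37A1 follows with 6.14 to 8.60.

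Both peaks reached further upstream of the start site than into the gene. At TFF1 the peak ran 1203, 1173 and 1120 bp upstream and 633, 457 and 369 bp downstream. At TFF2 it ran 2013, 2086 and 1939 bp upstream and 1017, 616 and 598 bp downstream. The upstream share was 65.5%, 72.0% and 75.2% of the TFF1 peak and 66.4%, 77.2% and 76.4% of the TFF2 peak. Over peaks that held a single protein-coding start site (7983, 7996 and 7474 of them) the median share was 43.1%, 43.4% and 43.9%. The upstream share of TFF1 exceeded that of 85.8%, 91.5% and 92.7% of these peaks, and that of TFF2 86.9%, 94.8% and 93.3%. The upstream part of the TFF2 peak holds the RefSeq promoter of LOC105372815, on the other strand, and non-coding starts were not counted here. How much of that upstream part belongs to TFF2 was not tested.

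TFF3, at chr21:42311667-42315409 on the minus strand (ENSG00000160180.17), the goblet cell member, differed from the other trefoil genes in having its start site outside every peak. Region 1 lay just upstream of it and ended 222, 188 and 117 bp short of the start. The peak was 433 bp wide with a fold of 5.57 in MDA-MB-231 replicate 2, 369 bp with 3.41 in Hs578T replicate 1, and 440 bp with 3.03 in Hs578T replicate 2. It exceeded 22.2%, 7.08% and 4.08% of promoter peaks by fold, and its q-value in Hs578T replicate 2 was above 0.01. So 3 trefoil genes that lie in a row on 1 strand had 2 promoters in the upper part of the promoter peaks and 1 in the lower part, in each of the 3 lists.

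**Figure D3:**
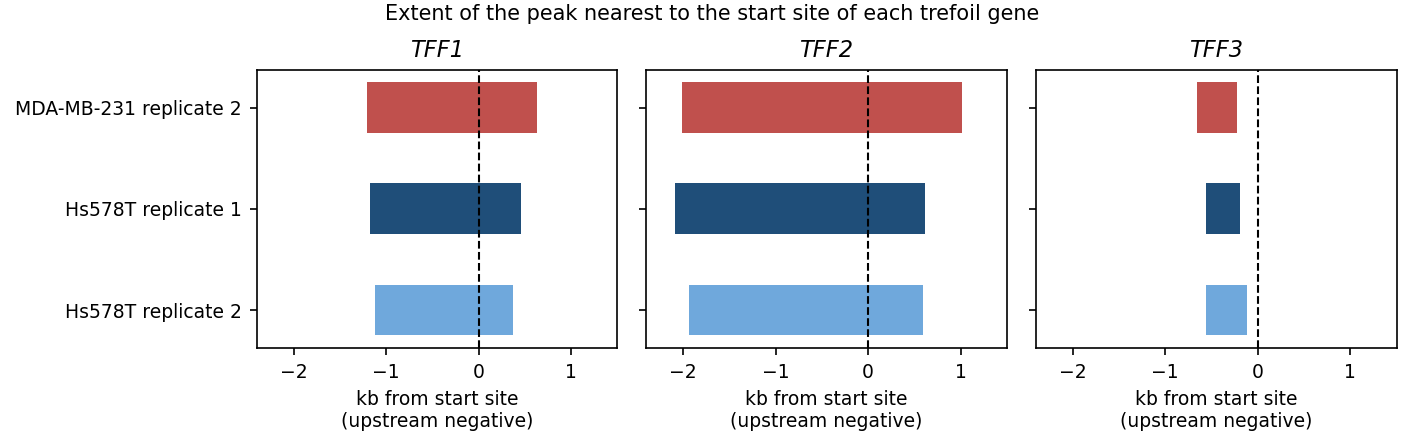
Extent of the peak nearest to the TFF1, TFF2 and TFF3 start sites (dashed lines) in the 3 large lists, in kb with upstream negative. The TFF1 and TFF2 peaks span the start with the larger part upstream, and the TFF3 peak stops 117 to 222 bp before it.

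Between TFF3 and TFF2, 2 weak intergenic regions recurred in all 3 large lists. Region 2 (chr21:42335828-42336715) had a fold of 3.18, 2.86 and 3.53, and region 3 (chr21:42337621-42338445) one of 2.95, 3.74 and 2.76. The q-value of region 3 was above 0.01 in MDA-MB-231 replicate 2 and Hs578T replicate 2. Their centres lay 14723 and 12961 bp from the TFF2 start, on its downstream side. The parts common to the 3 lists were short, 195 and 140 bp. These peaks were among the weaker ones of their lists, above 5.84% to 32.1% of all peaks by fold.

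TMPRSS3, at chr21:42371887-42396091 on the minus strand (ENSG00000160183.17), encodes a membrane-bound serine protease that is needed for hearing. Its only peak, region 6, was called in MDA-MB-231 replicate 2, where it was 360 bp wide with a fold of 4.25 and stopped 74 bp upstream of the start. In Hs578T the nearest peak was 28.3 kb and 28.4 kb away, the TFF1 peak. Region 6 exceeded 10.3% of the promoter peaks of its list by fold. None of the 3 annotated basic start sites of TMPRSS3 lay inside a peak in any list.

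UBASH3A, at chr21:42403447-42447684 on the plus strand (ENSG00000160185.15), encodes a suppressor of receptor signalling in T cells and was the only member with no promoter peak in any of the 4 lists. The nearest peak was 2.75 kb upstream in MDA-MB-231 replicate 2 (region 7, 652 bp, fold 3.23) and 36.2 kb away in both Hs578T lists. No peak overlapped its gene body. Among the members, the promoter peak farthest from its start lay 392 bp away (RSPH1 in Hs578T replicate 1), and the nearest peak beyond the 1 kb limit was region 7, so no member was close to that limit.

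RSPH1, at chr21:42472486-42496246 on the minus strand (ENSG00000160188.10), encodes a protein of the radial spoke head of motile cilia. Its start site and that of the divergent transcript RSPH1-DT were inside a peak in MDA-MB-231 replicate 2 (region 10, 898 bp, fold 3.58). In Hs578T replicate 1 a 286 bp peak with a fold of 2.996 lay 392 bp from the RSPH1 start. Hs578T replicate 2 had no peak there, and its nearest was 17.6 kb away from the start. These peaks exceeded 4.98% and 3.58% of promoter peaks by fold, and the 2 Hs578T replicates did not give the same call. Within RSPH1, a 213 bp peak in intron 8 (region 9, fold 3.72) was called in Hs578T replicate 2 alone.

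Above RSPH1, the neighbour SLC37A1 (ENSG00000160190.14, plus strand), a sugar phosphate exchanger of the endoplasmic reticulum, held regions 11 and 12 in all 3 large lists. Region 11 covered its canonical start in MDA-MB-231 replicate 2 (fold 4.74) and Hs578T replicate 1 (3.22), and began just past it in Hs578T replicate 2 (3.22). Region 12, in intron 1, had a fold of 6.76, 8.60 and 6.14, and exceeded 59.2%, 73.3% and 63.1% of all peaks of its list. It was the third strongest region of the locus in each list. Region 10 also overlapped the annotated span of SLC37A1, which begins at chr21:42496008, ahead of the canonical start of that gene. The small nuclear RNA gene RNU6-1149P and the non-coding gene ENSG00000231867 had no peak at their start.

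Of the 6 members, 5, 4 and 3 had a peak within 1 kb of the start site in the 3 large lists, and 0 in MDA-MB-231 replicate 1. Over all protein-coding genes that share was 58.1%, 58.2% and 56.4%, and 0.0601% in MDA-MB-231 replicate 1. The start site itself was inside a peak for 3 members (TFF1, TFF2 and RSPH1), 2 (TFF1 and TFF2) and 2 (TFF1 and TFF2), against 52.8%, 53.1% and 49.9% of protein-coding genes, and for 0 against 0.01% in MDA-MB-231 replicate 1. In all 3 large lists at the same time, 3 of 6 members (TFF1, TFF2 and TFF3) had a promoter peak, as had 55.6% of protein-coding genes. The locus was chosen on its promoter peaks, so nothing is read from these counts beyond the differences among members.

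**Figure D4:**
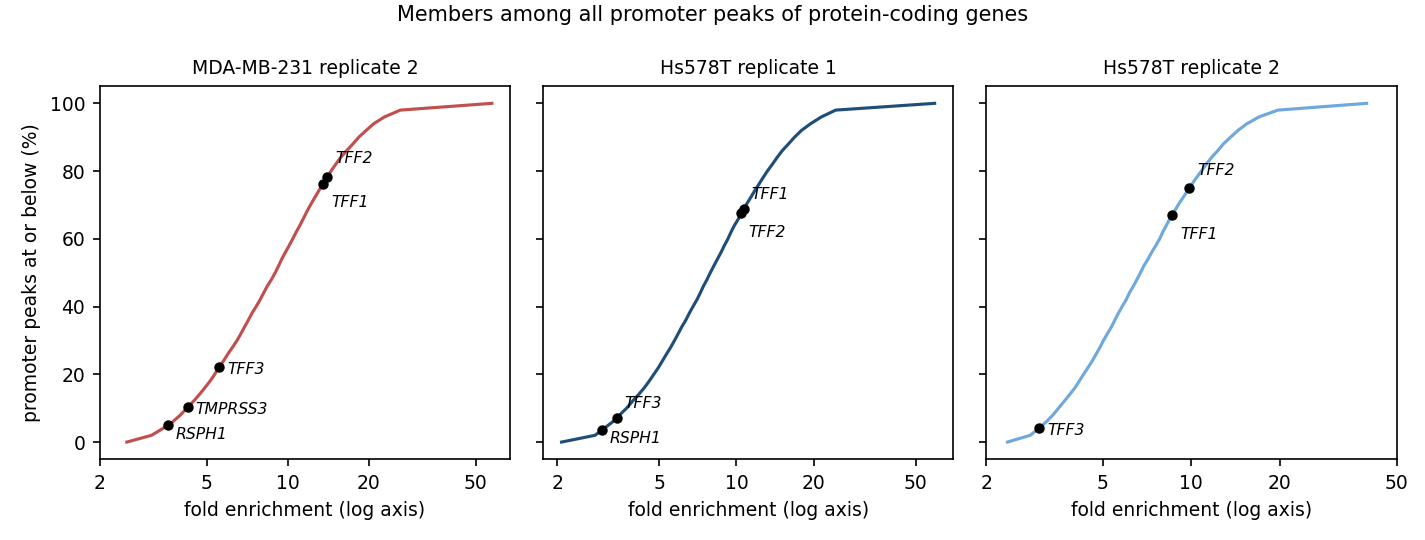
Percentage of promoter peaks of protein-coding genes at or below a given fold enrichment (curves, log axis) in each large list, with the members that had a promoter peak as black points. TFF1 and TFF2 lie between 67.1% and 78.3%, and TFF3, TMPRSS3 and RSPH1 at or below 22.2%.

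The trefoil promoters were poor in CpG dinucleotides, which most promoters with H3K27ac are not. Over a window of 1 kb centred on the start, the observed over expected CpG ratio was 0.256 at TFF3, 0.318 at TFF2, 0.371 at TFF1, 0.327 at UBASH3A, 0.527 at TMPRSS3 and 0.717 at RSPH1. Among genes with a promoter peak, the TFF1 ratio exceeded 5.04%, 5.25% and 5.06% of the others, and the TFF2 ratio 4.13%, 4.37% and 4.13%. Protein-coding genes were then put into 5 equal groups by this ratio. In the lowest group, with TFF3, 11.5%, 12.2% and 11.2% of genes had a promoter peak, and in the next, with TFF1, TFF2, TMPRSS3 and UBASH3A, 43.2%, 43.8% and 41.9%. In the group with the highest ratio the share was 82.4%, 82.1% and 80.4%. The 4 members of the same CpG group thus went separate ways, with a peak in every large list at TFF1 and TFF2, in 1 of them at TMPRSS3 and in none at UBASH3A.

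A set of 6 short motifs was searched on both strands: the oestrogen response element above, the AP-1 site TGAGTCA, the FOXA site TGTTTAC, the GC box GGGCGG, the TEAD site GGAATG and the TATA box TATAAA. A match is a stretch of letters and not a bound site. Matches are given for whole regions, while shares over all peaks are for their central 1 kb, so only a match inside the central 1 kb can be set beside them. The oestrogen response element of the TFF1 peak lay in its central 1 kb in each large list. With its open base, the pattern was held by 0.842%, 0.812% and 0.810% of the central 1 kb of all peaks. Of 35116 RefSeq promoters of 300 bases, 0.308% held it. The open base is the one where the TFF1 element departs from TGACC, so the match at TFF1 is not read as a result. The TFF1 peak also had a TATA box whose near edge was 24 bases upstream of the start, a GC box and a TEAD match, and no AP-1 match. The TFF2 peak had a TATA box 26 bases upstream and another downstream of the start. It also had an AP-1 match 1572 bases upstream, a GC box and 3 TEAD matches. The AP-1 match and the GC box lay outside the central 1 kb in each list. The central 1 kb of the TFF2 peak held a TATA box in MDA-MB-231 replicate 2 alone. Region 1, upstream of TFF3, had an AP-1 match 436 bases from the start and no TATA box. AP-1 matches were also in region 12. Central 1 kb windows held an AP-1 match in 38.4%, 37.9% and 37.8% of all peaks, so these are common letters in these lists. A TATA box was in 43.0%, 44.5% and 44.3% of these windows, and a TEAD match in 48.0%, 48.1% and 48.6%. A GC box was in 36.5%, 34.3% and 34.6%, so these letters are common too. Region 11 had 5 GC boxes. Regions 8 and 9 had no match to any of the 6 motifs. The 1 kb windows around their narrow peaks held an AP-1 match each, with a GC box at region 8 and a TEAD match at region 9. The RefSeq promoter table had an entry for 1 of the 6 members, TMPRSS3.

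Repeated sequence was unevenly spread over the locus. Of the words of 24 bases in the part of each region common to its lists, 82.9% occurred more than 1 time in the genome in region 8, 15.3% in region 5 (TFF1), 8.11% in region 7, 5.81% in region 4 (TFF2) and 1.74% in region 2. In 7 regions it was 0. How reads of repeated sequence were treated is not given in the sources used here, and the part of repeats in these peaks was not tested.

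The lists were then compared peak by peak, a counterpart being a peak in the other list that overlapped by at least 1 bp. In MDA-MB-231 replicate 2, 80% of its 10 peaks had a counterpart in Hs578T replicate 1 and 70% in Hs578T replicate 2. Of the 9 peaks of Hs578T replicate 1, 88.9% had one in MDA-MB-231 replicate 2, and of the 9 of Hs578T replicate 2, 77.8% had. Between the Hs578T replicates it was 88.9% in both directions. Over all peaks of chromosome 21 the corresponding shares were 91.7% and 90.4% for MDA-MB-231 replicate 2, 89.0% and 90.6% for the Hs578T lists against it, and 90.3% and 93.8% between the Hs578T replicates. The lower shares of the locus rest on 9 or 10 peaks a list and were not tested. The shared bases over the bases in either list (Jaccard index) were 0.719 between the Hs578T replicates, and 0.627 and 0.581 between MDA-MB-231 replicate 2 and each of them. Regions 6 and 7, between the TMPRSS3 and UBASH3A starts, were called only in MDA-MB-231 replicate 2, and region 8 in both Hs578T lists only. Region 8, intergenic between UBASH3A and RSPH1, was 231 and 206 bp wide there with folds of 3.66 and 3.63, among the narrowest peaks of its lists, and had the highest share of repeated words given above. With 2 lists per line, the smallest p of an exact permutation test (two-sided) is 0.333, and with 1 usable list of MDA-MB-231 a difference between the lines cannot be told apart from a difference between libraries.

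Genes that share a role with the members were counted by the same promoter rule. The luminal and oestrogen-responsive list bears on the reason for which TFF1 was chosen. Of its 16 genes, 9 were marked in each of the 3 large lists, 56.25%, against the 58.1%, 58.2% and 56.4% of all protein-coding genes. They were the same 9 genes. XBP1, a transcription factor of secretory cells, had a fold of 19.4, 13.9 and 10.3. The keratin gene KRT8 had 12.98, 14.8 and 12.6, and the melanosome transport gene MLPH had 17.4, 16.3 and 14.9. NRIP1, a co-regulator of the oestrogen receptor, had 7.30, 6.26 and 4.10. The 7 genes without a peak were the receptors ESR1 and PGR, the factors GATA3 and FOXA1, and GREB1, AGR3 and CA12. TFF1 was thus not alone among luminal genes in having a promoter peak.

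Factors known to bind or regulate TFF1 were counted next. Of 11, 8 (72.7%) had a promoter peak in each large list, against 55.6% of all protein-coding genes. They were GATA6, JUN, FOS, STAT3, SP1, HIF1A, USF1 and KLF4. ESR1, FOXA1 and GATA3 had none, and as the luminal list also holds them, this is not a separate observation. JUN and FOS, the subunits of AP-1, had folds of 14.8, 13.9 and 11.7 and of 13.4, 16.8 and 13.1. STAT3, which mediates cytokine signals, had 15.3, 9.39 and 7.65. Among 5 proposed receptors or partners of trefoil factors, the receptor genes F2RL1 (12.1, 13.4 and 10.7) and EGFR (11.03, 7.63 and 5.10) were marked in each large list, and CXCR4, ACKR3 and LINGO2 had none. The marked share of these 5 genes was 40%.

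Mucosal secretory genes were marked in part. Of 10 such genes, 4, 4 and 3 were marked at the promoter, or 40%, 40% and 30%, against 58.1%, 58.2% and 56.4% of all protein-coding genes. The mucin genes MUC1 (15.7, 13.9 and 11.5) and MUC2 (6.33, 7.80 and 6.99) and the disulphide isomerase gene AGR2 (6.19, 5.69 and 4.66) had a promoter peak in each large list. The MUC2 start lay outside its peak in each of them. GKN1, which encodes a secreted protein of gastric surface cells, had a promoter peak of 3651 bp with a fold of 16.5 in MDA-MB-231 replicate 2. The GKN1 start lay outside that peak, and neither Hs578T list had a peak within 1 kb of the start. MUC5AC had one in Hs578T replicate 1 alone (3.26), and MUC5B, MUC6, GKN2, FCGBP and CLCA1 had none.

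**Figure D5:**
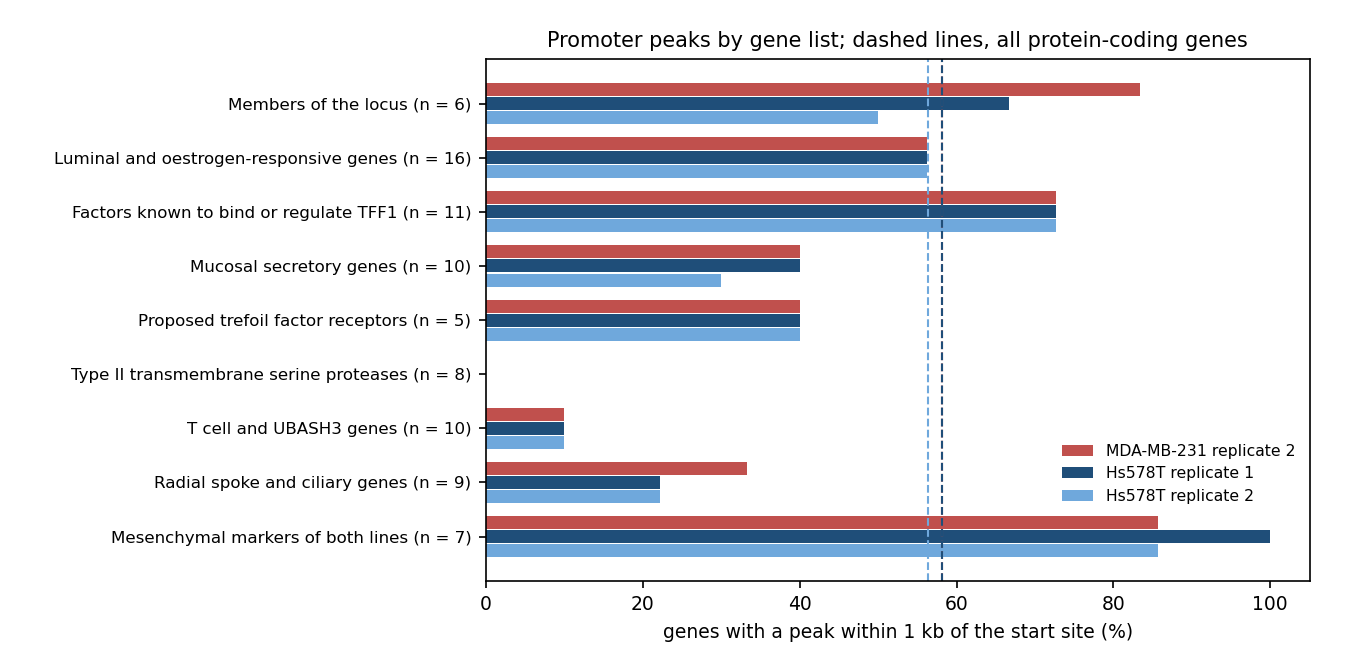
Percentage of the genes of each list with a peak within 1 kb of the start site in the 3 large lists; dashed lines give the share of all protein-coding genes, 56.4% to 58.2%. The luminal list sits at the dashed lines with 56.25%, serine proteases related to TMPRSS3 are at 0 and mesenchymal markers are highest.

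Relatives of the remaining members were mostly unmarked, while 58.1%, 58.2% and 56.4% of all protein-coding genes had a promoter peak. None of 8 type II transmembrane serine protease genes related to TMPRSS3 (among them TMPRSS2, HPN and ST14) had a promoter peak in any list. Of 10 T cell and UBASH3 genes, UBASH3B, the broadly expressed relative of UBASH3A, had one in each large list (13.2, 9.45 and 7.55), and the other 9 had none. Of 9 radial spoke and ciliary genes, 3, 2 and 2 had one. RSPH3 had folds of 14.1, 14.1 and 12.5, RSPH14 had 3.40, 3.57 and 3.49, and ROPN1L had 4.07 in MDA-MB-231 replicate 2 alone. The RSPH14 start lay outside its peak in each large list. FOXJ1, the main regulator of motile cilia, had no promoter peak.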

How the data were processed

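H3K27ac ChIP-seq was made from 4 libraries of MDA-MB-231 and Hs578T cells. Per the labels and the study's methods, the authors trimmed reads with Trimmomatic, mapped them to hg38 with Bowtie2, called peaks per library with MACS2 after subtracting input, and removed blacklisted regions. Versions and MACS2 settings are not given in the sources used here. The 9 columns are those of broad peaks. The deposited lists give each peak a score, a fold enrichment (a ratio over local background), and −log10 p-value and −log10 q-value, all set by the authors. The largest q-value of a list was 0.0827 to 0.0994. Depth is unknown, so no interval is given, and peaks near the threshold can be lost in a shallower library.

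Peaks were read with Python 3.11.15, numpy 2.4.6 and scipy 1.17.1 and compared with GENCODE release 44, whose sequence names and lengths fitted the lists. A promoter peak overlapped the Ensembl canonical start site with 1 kb on either side, and the strongest by fold was taken. Regions were built from overlapping peaks of any list. Percentiles are shares of peaks with a lower value in the same list. The scripts were checked on simulated peaks. No test was run. Genes named are the members, other genes starting in the locus, and examples from fixed lists. Members and lists were chosen with earlier results of these data known. Alternatives were peak strength, merging, flank, promoter window, start sites, overlap and leaving out a list. Sequence is printed from 3 of the 12 regions.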

Additional observations from a re-analysis of the deposited data

How the results depend on the processing

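The results are counts, widths, covered bases, shares and percentiles, which have no direction to reverse. Under other settings, 46 of 68 values stayed within a factor of 1.5 (counts), within 1 SD between the lists of a line (other values) or, where 1 list gave a percentile, within its 95% Wilson interval. For the MDA-MB-231 peaks with a counterpart, that SD was between the shares of replicate 2 in the 2 Hs578T lists. For the bases covered in MDA-MB-231 it was the gap between a nearly empty and a usable list, so staying within it says little. The mean counts of MDA-MB-231 below also include the nearly empty list, so they are not compared with those of Hs578T. With each list reduced to its 50% of highest score, the locus held on average 1.5 peaks in MDA-MB-231 and 3 in Hs578T (TFF2, TFF1 and region 12 in each large list) in place of 5 and 9. Then 1 and 2 members had a promoter peak in place of 2.5 and 3.5, Hs578T peaks covered 5748 bp in place of 8408 bp, 5.5 luminal genes were marked in place of 9, and 100% of locus peaks had a counterpart in either line. The TFF1 percentile among promoter peaks fell to 68.8 and 57.5, from 76.3 and 67.9, in lists that lack the weaker peaks by construction. At a q-value of at most 0.01, 66.7% of MDA-MB-231 and 74.6% of Hs578T peaks had a counterpart (75% and 83.3% before), and with an overlap of 50% of both peaks 60% and 66.7% had. Without flanks Hs578T peaks covered 5713 bp, and with 100 kb flanks 10685 bp. Counting only start sites inside a peak left 1.5 and 2 members and a TFF1 percentile of 74.2 and 64.8, and a 2.5 kb window gave 77.3 and 69.3.

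Leaving out a list in turn gave, in MDA-MB-231, 0 to 10 locus peaks, 0 to 11596 bp covered, 0 to 5 members and 0 to 9 luminal genes, the lower value without replicate 2 and the higher without replicate 1. The width of the TFF1 peak (1837 bp) and its percentile (76.3) had no value without replicate 2, and 70% to 80% of peaks had a counterpart. In Hs578T the ranges were 9 to 9 peaks, 8132 to 8683 bp, 3 to 4 members, 9 to 9 luminal genes, a TFF1 width of 1490 to 1631 bp, a percentile of 67.1 to 68.8 and 77.8% to 88.9% of peaks with a counterpart. No paired analysis was possible because the values come from peak lists with no test, and the labels give no pairing beyond the replicate number. Depth, which is unknown, limits what the absence of a weak peak can say.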
